A study of Saccharomyces cerevisiae with 6 samples.

Results

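Cohesin and condensin are the ring-shaped protein complexes that organise chromosomes, and the 9 genes described here encode the core subunits of both in budding yeast: SMC1, SMC3, MCD1 and IRR1 of cohesin, and SMC2, SMC4, BRN1, YCS4 and YCG1 of condensin. The members were taken by systematic name from a deposited expression table of 7126 features, in which all 9 had a row. RNA was measured in 3 libraries of a Saccharomyces cerevisiae strain labelled mms21RINGD, a mutant of the SUMO ligase gene MMS21, and in 3 libraries of wild type (WT) labelled with the strain name W303, a common laboratory background. The labels give no other allele. Nothing in them says that replicates are independent cultures, and the spread behind each p-value may therefore be technical. All 6 cultures were grown in the rich medium YPD with a complete amino acid supplement (CSM) to an optical density of 0.6, that is, in exponential phase, and ribosomal RNA was depleted from total RNA before library construction.

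Each complex is built around a pair of SMC proteins, long coiled-coil ATPases whose heads are bridged by a kleisin subunit to close a ring, with helical-repeat proteins bound to the kleisin. Cohesin holds sister chromatids together from S phase until the protease separase cuts its kleisin at anaphase, so the kleisin has to be made anew in each cell cycle. Condensin compacts chromosomes for mitosis and, in budding yeast, is enriched on the ribosomal DNA. Mms21 is itself part of Smc5/6, the third SMC complex of eukaryotes, and in yeast cohesin subunits are among the proteins to which it attaches SUMO. In yeast many genes for DNA replication and cohesion are transcribed in late G1 under the factors MBF and SBF, which bind the promoter elements called MCB and SCB.

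The sequences upstream of the coding starts are shown first because the elements they hold differ between the complexes. The MCB was searched as ACGCGT, which reads the same on both strands, and the SCB as CACGAAA or CGCGAAA on either strand, in the 500 bases before the coding start in the RefSeq R64 genome, which comes from strain S288C and not from W303. All 4 cohesin genes held an MCB, against 1 of 5 condensin genes and 5.42% of the 6000 windows of the same length in the genome. MCD1 and IRR1 each held 2 copies, as did 0.567% of all windows when 2 or more are counted. An SCB match was found for MCD1 and for 3 condensin genes, SMC4, BRN1 and YCS4, against 12.5% of all windows, and YCG1 held neither element. The letters of no MCB and SCB match overlapped in these genes. Each stretch below runs 5′ to 3′ on the strand of its gene with 20 bases on either side of the outermost matches. Capitals mark MCB matches in the first 5 genes, the SCB in MCD1, read on its other strand as TTTCGCG, and SCB matches in SMC4, BRN1 and YCS4.

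SMC1: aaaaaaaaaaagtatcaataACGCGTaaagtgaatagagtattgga

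SMC3: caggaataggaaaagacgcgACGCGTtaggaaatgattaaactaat

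MCD1: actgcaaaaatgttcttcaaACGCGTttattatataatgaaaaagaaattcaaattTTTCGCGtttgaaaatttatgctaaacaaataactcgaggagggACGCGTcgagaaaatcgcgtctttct

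IRR1: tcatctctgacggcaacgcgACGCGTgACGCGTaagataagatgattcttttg

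SMC2: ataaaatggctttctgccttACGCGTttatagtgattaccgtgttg

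SMC4: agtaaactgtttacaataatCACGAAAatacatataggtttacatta

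BRN1: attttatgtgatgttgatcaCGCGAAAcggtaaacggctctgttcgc

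YCS4: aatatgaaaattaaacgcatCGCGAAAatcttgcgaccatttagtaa

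In R64 these stretches lie at chrVI:119287-119332 (plus strand) for SMC1, chrX:302941-302986 (minus) for SMC3, chrIV:444291-444416 (plus) for MCD1, chrIX:308032-308084 (minus) for IRR1 and chrVI:220225-220270 (minus) for SMC2. Those of SMC4, BRN1 and YCS4 lie at chrXII:302099-302145 (plus), chrII:40629-40675 (plus) and chrXII:687311-687357 (minus). The MCB of SMC1 began 122 bases before the coding start and that of SMC3 117 bases before it. The 2 copies of IRR1 began at 135 and 128 bases, separated by a single letter, while those of MCD1 lay farther away, at 372 and 292 bases. The stress response element AGGGG, searched on both strands, had 1 match before IRR1 and 3 before SMC2. It was found in 34.1% of all windows, and 2 or more copies in 8.13%. A match describes the letters in these windows and does not show that a factor is bound there.

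**Figure D1:**
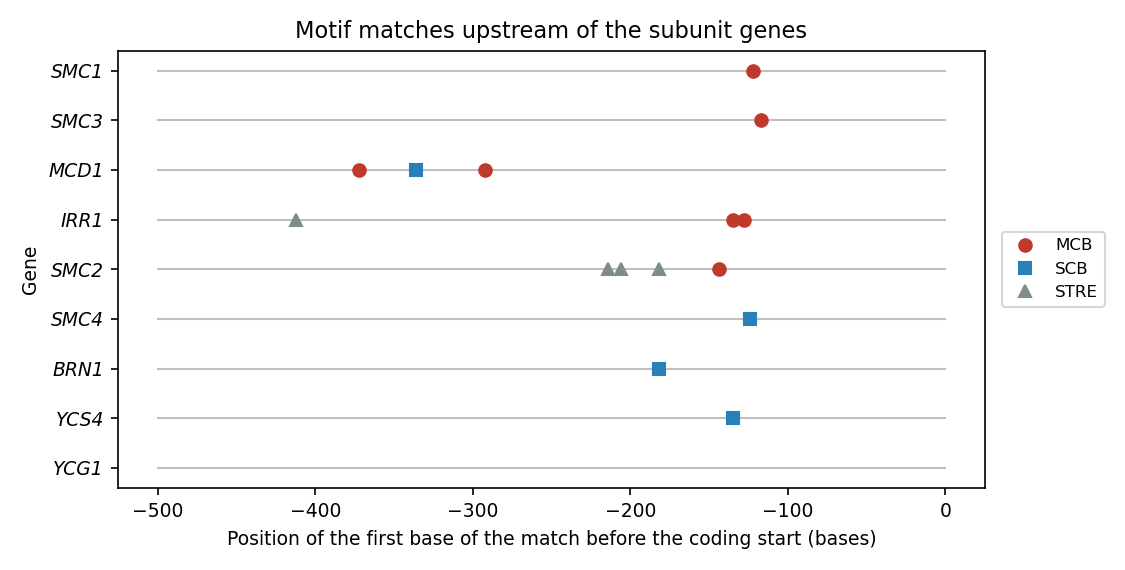
Positions of MCB (circles), SCB (squares) and stress response element (STRE, triangles) matches in the 500 bases before the coding start of each gene, with the coding start at 0. Circles stand before all 4 cohesin genes and before SMC2, and the line of YCG1 is empty.

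Library totals inferred from the RPKM values were 19.3 to 24.6 M reads, and the 9 genes were read 296 to 2291 times per library. The half-width of 95% exact Poisson intervals, which cover counting error only, was thus at most 11.6% of a value. MMS21 had 16.6, 12.9 and 13.5 RPKM (reads scaled to the length of the gene and the total of the library) in mms21RINGD and 3.23, 3.04 and 2.18 RPKM in WT, a level that does not show the allele itself. WT replicate 1 stood apart from the other WT libraries along the first principal component of all features, at -16.4 against -33.0 and -34.1, with the mutant libraries at 26.4 to 29.8. Genes of the general stress response moved with the groups: the summed level of 10 of them was 3702 to 4315 RPKM in mms21RINGD, against 241, 101 and 89.6 RPKM in WT replicates 1, 2 and 3. The part of this stress state, or of WT replicate 1, in the values below was not tested beyond the values given without that library.

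Differences were tested with limma, a moderated linear model, on log2(RPKM + 1) over the 6731 features that averaged 1 RPKM or more, two-sided, with Benjamini-Hochberg adjustment over all of them. A change with an adjusted p under 0.05 is called, each log2 fold change is mms21RINGD minus WT on that scale, and ± gives its standard error or, beside a mean, the SD of 3 libraries. Of the 9 subunit genes 6 were higher in mms21RINGD and none was lower, where 42.7% of all features tested were higher and 10.9% lower. The 6 were SMC1 and IRR1 of cohesin and SMC2, SMC4, BRN1 and YCS4 of condensin. SMC3, MCD1 and YCG1 did not pass. The same 6 genes were those whose groups did not overlap, where 50.1% of all features were higher and 14.3% lower with no overlap. The median log2 fold change was 0.30 for the 9 genes and 0.24 for all features, and the members ranged from 0.11 for YCG1 to 0.55 for YCS4. These counts depended on scaling. With median-of-ratios scaling that median was -0.0011 and 2 members, IRR1 and YCS4, were called higher, where 25.4% of all features were higher and 27.1% lower. With quantile normalization it was -0.099, YCS4 alone was called higher and BRN1 and YCG1 were called lower, where 20.3% of all features were higher and 34.6% lower.

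The subunits of cohesin come first. SMC1 (YFL008W, chromosome VI, 119429 to 123106, plus strand), an ATPase arm of the ring, measured 21.1, 22.6 and 21.8 RPKM in mms21RINGD and 19.1, 14.7 and 13.8 RPKM in WT replicates 1, 2 and 3. The groups did not overlap, and WT replicate 1 lay nearest to the mutant. The mean was 1.38-fold higher in the mutant, or 0.45 ± 0.12 on the log2 scale (limma adjusted p = 0.0201), which is 0.21 above the median of all features.

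IRR1 (YIL026C, chromosome IX, 304477 to 307929, minus strand), also called SCC3, encodes the helical-repeat subunit that binds the kleisin and DNA and is needed for loading. It measured 18.9, 20.4 and 19.9 RPKM in mms21RINGD and 16.9, 12.4 and 11.3 RPKM in WT. All 3 mutant libraries were above all 3 WT libraries. The difference was 1.46-fold, or 0.53 ± 0.14 on the log2 scale (limma adjusted p = 0.01996), which placed IRR1 at the 75.2 percentile of all features.

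The other SMC arm and the kleisin behaved otherwise. SMC3 (YJL074C, chromosome X, 299157 to 302849, minus strand), whose acetylation stabilises cohesion in S phase, measured 22.1, 22.1 and 23.0 RPKM in mms21RINGD and 24.7, 18.2 and 17.6 RPKM in WT. MCD1 (YDL003W, chromosome IV, 444683 to 446383, plus strand), also called SCC1, the kleisin that separase cleaves, measured 26.7, 26.8 and 28.2 RPKM in mms21RINGD and 32.7, 22.6 and 20.1 RPKM in WT. In both genes WT replicate 1 was the highest of the 6 libraries, while WT replicates 2 and 3 were below every mutant library. Neither passed the test, with log2 fold changes of 0.16 ± 0.13 for SMC3 (limma adjusted p = 0.323) and 0.14 ± 0.17 for MCD1 (limma adjusted p = 0.495). Without WT replicate 1 both were called, SMC3 at 0.31 (limma adjusted p = 0.00137) and MCD1 at 0.34 (limma adjusted p = 0.00315).

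Among the condensin genes YCS4 (YLR272C, chromosome XII, 683672 to 687202, minus strand) differed most. It encodes a helical-repeat subunit that binds the kleisin Brn1. It measured 26.6, 26.996 and 27.04 RPKM in mms21RINGD and 18.7, 17.8 and 17.6 RPKM in WT, so that the gap between the groups was wider than the range within either. The difference was 1.49-fold, or 0.55 ± 0.06 on the log2 scale (limma adjusted p = 0.000575). It was called with each of the 6 libraries left out in turn, and WT replicate 1 was 1.06 times the mean of the other WT libraries, the smallest such ratio of the 9 genes.

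YCG1 (YDR325W, chromosome IV, 1117126 to 1120233, plus strand), the other helical-repeat subunit, did not follow. It measured 18.3, 18.2 and 19.3 RPKM in mms21RINGD and 18.7, 16.4 and 16.2 RPKM in WT, and WT replicate 1 lay within the mutant range. Its log2 fold change of 0.11 ± 0.08 did not pass (limma adjusted p = 0.244), and without WT replicate 1 it was called at 0.18 (limma adjusted p = 0.0191). YCG1 was below the median of all features by 0.12 on the log2 scale.

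The SMC pair of condensin lay between these. SMC2 (YFR031C, chromosome VI, 216594 to 220106, minus strand) measured 14.8, 14.7 and 15.03 RPKM in mms21RINGD and 13.2, 10.4 and 11.05 RPKM in WT. SMC4 (YLR086W, chromosome XII, 302243 to 306499, plus strand) measured 13.3, 13.9 and 13.2 RPKM in mms21RINGD and 11.8, 10.7 and 10.4 RPKM in WT. The groups did not overlap in either gene. SMC2 was 1.29-fold higher (log2 fold change 0.34 ± 0.09, limma adjusted p = 0.0224) and SMC4 1.23-fold higher (0.28 ± 0.07, limma adjusted p = 0.0186). BRN1 (YBL097W, chromosome II, 40831 to 43095, plus strand), the condensin kleisin, had the lowest level of the 9 genes in every library, 8.55, 8.52 and 8.51 RPKM in mms21RINGD and 7.57, 6.70 and 6.02 RPKM in WT. It was 1.26-fold higher in the mutant (log2 fold change 0.30 ± 0.10, limma adjusted p = 0.0360).

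**Figure D2:**
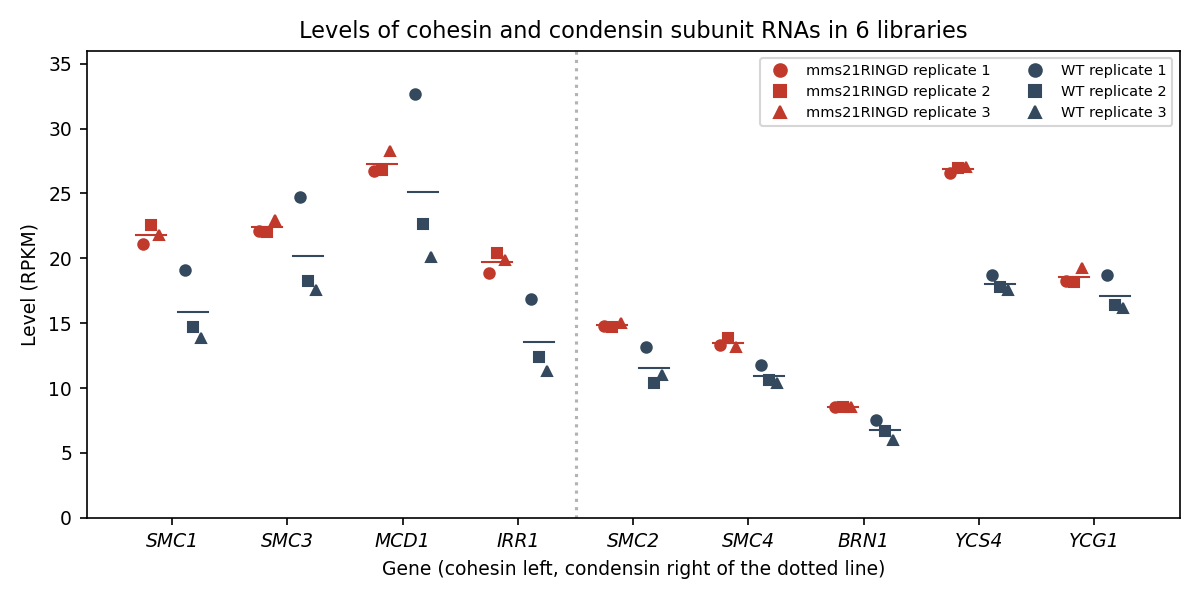
Level in RPKM (vertical axis) of each of the 9 subunit RNAs in the 3 mms21RINGD libraries (red) and the 3 WT libraries (dark), with a symbol per replicate number and a line at the mean of each group. The WT circles, replicate 1, top all other points for SMC3 and MCD1, and the groups are farthest apart relative to their spread for YCS4.

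The calls of SMC1, IRR1, SMC2, SMC4 and BRN1 were lost when mms21RINGD replicate 1, 2 or 3 or WT replicate 2 or 3 was left out, with limma adjusted p between 0.0507 and 0.103. YCS4 was then the single member called, at limma adjusted p of 0.00290 to 0.00628. The share of all features called higher was 31.8%, 28.5% and 27.6% without mms21RINGD replicates 1, 2 and 3, and 29.4% and 31.7% without WT replicates 2 and 3. Without WT replicate 1 all 9 members were called higher, where 57.3% of all features were higher, and their median log2 fold change was 0.37 against 0.29 for all features. The exact two-sided permutation test of 3 against 3 libraries cannot go below p = 0.1. Each of the 6 called members had that value, as any gene without overlap must. The same exact permutation test gave p = 0.4 for SMC3, 0.5 for MCD1 and 0.3 for YCG1.

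**Figure D3:**
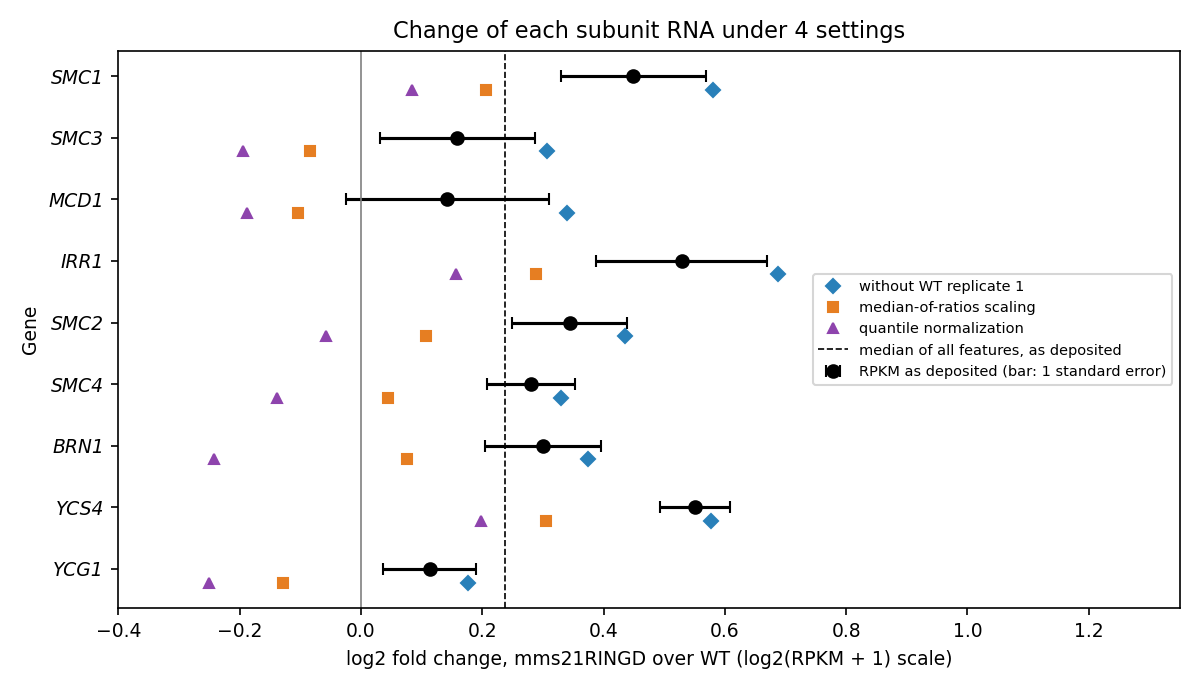
log2 fold change of mms21RINGD over WT for each gene (horizontal axis, log2(RPKM + 1) scale) as deposited (black, bars of 1 standard error), without WT replicate 1 (diamonds), after quantile normalization (triangles) and after median-of-ratios scaling (squares). The dashed line is the median of all features as deposited, 0.24. The whole set shifts to the left with either scaling, and SMC3, MCD1 and YCG1 fall to the left of 0 with both scalings.

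The order of the levels differed between the groups. In mms21RINGD MCD1 (27.3 ± 0.854 RPKM) and YCS4 (26.9 ± 0.255) came first with overlapping ranges, followed by SMC3 (22.4 ± 0.508) and SMC1 (21.8 ± 0.747), which overlapped too. Next were IRR1 (19.7 ± 0.761) and YCG1 (18.6 ± 0.612), with overlapping ranges, and then SMC2 (14.8 ± 0.175), SMC4 (13.5 ± 0.378) and BRN1 (8.53 ± 0.0194), each apart from the one above it (SD, n = 3). In WT the order was MCD1 (25.1 ± 6.65 RPKM), SMC3 (20.2 ± 3.95), YCS4 (18.04 ± 0.615), YCG1 (17.1 ± 1.41), SMC1 (15.9 ± 2.81), IRR1 (13.5 ± 2.96), SMC2 (11.5 ± 1.47), SMC4 (10.9 ± 0.735) and BRN1 (6.76 ± 0.777), and of these neighbours SMC4 and BRN1 alone had ranges apart. Within single libraries more of this order held. MCD1 was above SMC3, SMC3 above YCS4, SMC1 above IRR1 and IRR1 above SMC2 in all 3 WT libraries. YCS4 was above YCG1, YCG1 above SMC1 and SMC2 above SMC4 in 2 of them. IRR1 was above YCG1 in all 3 mutant libraries. These levels are per kilobase of gene, and measure RNA and not protein. YCS4 thus stood level with the cohesin kleisin in the mutant, while in WT it was below MCD1 in each library.

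Ratios between genes of the same library do not depend on a factor applied to that whole library. Of the 16 pairs within a complex, 12 had ratios that did not overlap between the groups, or 75%. Among all pairs of tested features above 0 in every library the share was 62.9%. The 16 pairs share genes and are not independent. The pairs named here were chosen after their values were seen. Within cohesin, SMC1 and IRR1 gained on SMC3 and MCD1. The ratio of IRR1 to MCD1 was 0.708, 0.760 and 0.703 in mms21RINGD and 0.517, 0.548 and 0.564 in WT, and that of SMC1 to SMC3 was 0.953, 1.02 and 0.949 in mms21RINGD and 0.772, 0.805 and 0.788 in WT. WT replicate 1 did not lie toward the mutant in either ratio. The ratio of SMC3 to MCD1 overlapped, at 0.822 ± 0.00778 in mms21RINGD and 0.813 ± 0.0595 in WT (SD, n = 3 each).

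Within condensin the largest shift was that of YCS4 against YCG1, with ratios of 1.46, 1.49 and 1.40 in mms21RINGD and 1.000, 1.09 and 1.09 in WT. YCS4 was thus close to level with its partner subunit in WT replicate 1 and above it in the other libraries. The ratios among SMC2, SMC4 and BRN1 overlapped in all 3 pairs. That of SMC2 to SMC4 was 1.103 ± 0.0421 in mms21RINGD and 1.05 ± 0.0746 in WT (SD, n = 3 each). Ratios without overlap between 3 and 3 libraries always give p = 0.1 in the exact permutation test, its smallest value. That p therefore adds nothing for the 12 pairs.

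**Figure D4:**
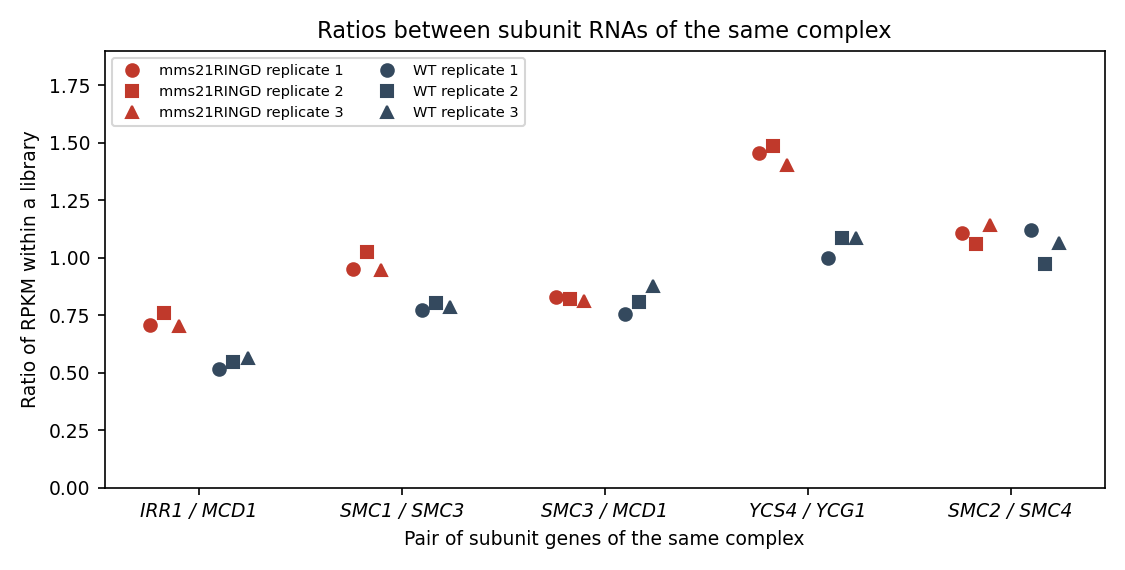
Ratio of RPKM between pairs of genes of the same complex (vertical axis, linear from 0) in each library, mms21RINGD in red and WT dark. The groups are apart for IRR1 to MCD1, SMC1 to SMC3 and YCS4 to YCG1, and overlap for SMC3 to MCD1 and SMC2 to SMC4.

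The complexes also differed in how WT replicate 1 stood to the other WT libraries. Its level was 1.34 to 1.53 times the mean of WT replicates 2 and 3 in the 4 cohesin genes and 1.06 to 1.23 times in the 5 condensin genes, where the median of all features was 1.11 times. Summed over the complex, cohesin measured 88.8, 91.9 and 92.9 RPKM in mms21RINGD and 93.4, 67.9 and 62.8 RPKM in WT. Condensin measured 81.5, 82.3 and 83.0 RPKM in mms21RINGD and 69.97, 61.9 and 61.2 RPKM in WT. WT replicate 1 was thus the highest library for the cohesin sum and below every mutant library for the condensin sum. The ratio of the sums was 1.09, 1.12 and 1.12 in mms21RINGD and 1.33, 1.097 and 1.03 in WT. The 20 genes of a late G1 list, which cells transcribe before S phase, were at 1.17 to 1.54 times the mean of the other WT libraries there, with a median of 1.348, against a median of 1.02 for 12 genes of a G2/M list. Among 9 genes of an M/G1 list the median was 1.22 and among the 10 stress genes 1.75, so that a high level in this library was shared by other lists too. In bulk RNA a larger share of cells in a phase and more RNA per cell cannot be told apart.

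**Figure D5:**
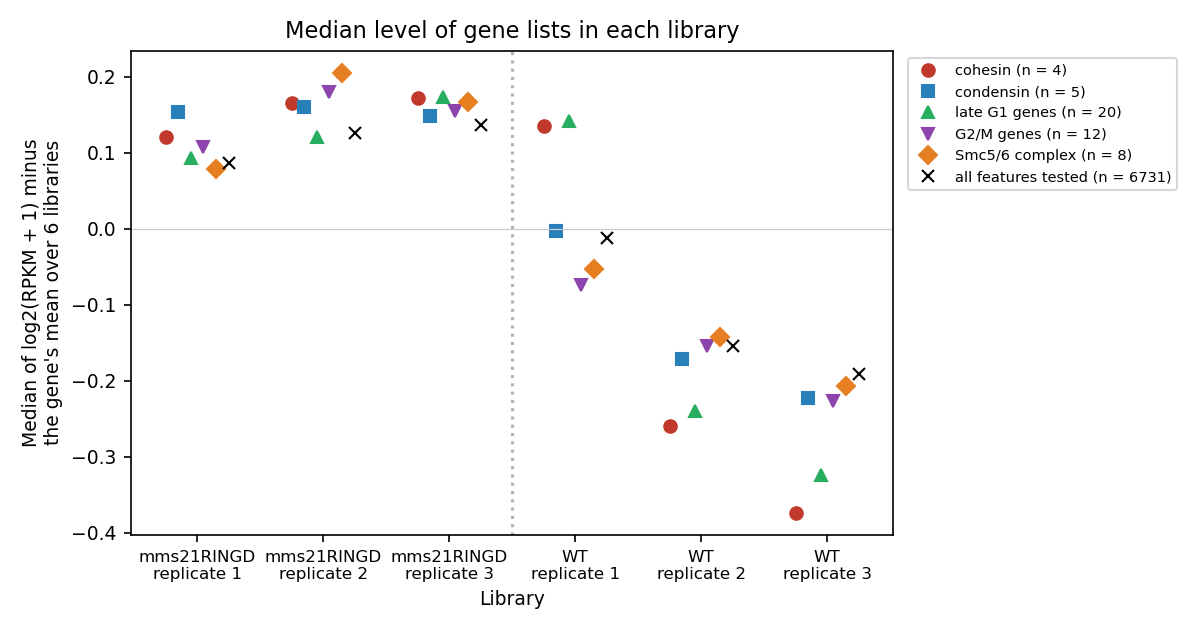
Median over each gene list of log2(RPKM + 1) minus the gene's own mean over the 6 libraries (vertical axis) in each library, mms21RINGD left of the dotted line and WT right of it. In WT replicate 1 cohesin and the late G1 genes lie at 0.14, condensin at -0.0031 and all features at -0.012; the M/G1 list, not drawn, lies at 0.20 there.

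Between the groups the cell cycle lists moved in different ways. Of the 20 late G1 genes 5 were higher and none lower, against 42.7% and 10.9% of all features (median log2 fold change 0.24, equal to that of all features), among them NRM1, a repressor of MBF (0.46 ± 0.11), CDC21, thymidylate synthase (0.57 ± 0.16), RFA1, the large subunit of replication protein A (0.57 ± 0.16), and CDC45 of the replicative helicase (0.37 ± 0.11). An MCB stood before 13 of the 20. Without WT replicate 1 there were 16 higher genes, where 57.3% of all features were higher. There were 0 or 1 when any other library was left out, where 27.6% to 31.8% of all features were higher. Totals without structural and mitochondrial RNAs gave 11 higher late G1 genes, where 3389 of all 6785 features were higher. Median-of-ratios scaling gave 1 higher and 3 lower late G1 genes, and quantile normalization 0 higher and 4 lower. Of all features 25.4% were higher and 27.1% lower with the first, and 20.3% and 34.6% with the second. Of the 4 named, NRM1 alone was still called after median-of-ratios scaling and none after quantile normalization. The calls of CDC21, RFA1 and CDC45 were lost without each of those other libraries, and that of NRM1 without mms21RINGD replicate 3. Of the 12 G2/M genes 7 were higher and 1 lower (median 0.31), and 4 were higher without WT replicate 2 or mms21RINGD replicate 2 or 3. Median-of-ratios scaling gave 3 higher and 4 lower G2/M genes, and quantile normalization 1 higher and 5 lower, with the shares of all features as above. KIN3, a mitotic kinase gene, rose by 0.66 ± 0.08, SWI5, a transcription factor of the M/G1 boundary, by 0.44 ± 0.06, IQG1, of the cytokinetic ring, by 0.43 ± 0.06 and CDC20, an activator of the anaphase-promoting complex, by 0.41 ± 0.07. After quantile normalization SWI5 at 0.085, IQG1 at 0.11 and CDC20 at 0.021 were not called, and CDC20 at 0.18 was not called after median-of-ratios scaling either. The gene called lower was CLB2, a mitotic cyclin named after its values were seen (-0.26 ± 0.06, limma adjusted p = 0.0110), a call that was lost without mms21RINGD replicate 3. Of the 9 M/G1 genes 1 was higher and 3 lower (median -0.08). With either scaling 7 were lower, where 27.1% of all features were lower after median-of-ratios scaling and 34.6% after quantile normalization. The cell separation genes CTS1, DSE2 and DSE1 fell by 0.57, 0.48 and 0.38 on the log2 scale, and RME1, a repressor of meiosis, rose by 0.68.

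Among 15 genes that load, protect and remove cohesin 4 were higher and none lower, against 42.7% and 10.9% of all features. The 4 include REC8, which is described below without a test. The median log2 fold change of the 15 was 0.23. Totals without structural and mitochondrial RNAs gave 7 higher genes of the 15, PDS5 among them, where 3389 of all 6785 features were higher. Median-of-ratios scaling gave 1 higher and 2 lower, and quantile normalization 0 higher and 8 lower. Of all features 25.4% were higher and 27.1% lower with the first, and 20.3% and 34.6% with the second. SCC4, a subunit of the loader, was at 14.5, 17.5 and 11.7 RPKM in mms21RINGD and 10.7, 9.50 and 9.80 RPKM in WT (log2 fold change 0.49 ± 0.14, limma adjusted p = 0.0251). Its partner SCC2 did not pass (0.12 ± 0.06, limma adjusted p = 0.164). After quantile normalization SCC2 was called lower, at -0.26 (limma adjusted p = 0.0274). ECO1, the acetyltransferase that acts on Smc3, was at 4.85, 5.26 and 6.28 RPKM in mms21RINGD and 4.46, 3.06 and 2.18 RPKM in WT (0.64 ± 0.21, limma adjusted p = 0.0412). RAD61, also called WPL1, which releases cohesin from DNA, rose by 0.27 ± 0.08 (limma adjusted p = 0.0365). SCC4, ECO1 and RAD61 were not called higher after median-of-ratios scaling or quantile normalization, and RAD61 was called lower after the second.

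The fourth gene counted was REC8, the kleisin that takes the place of Mcd1 in meiosis. It was at 1.55, 1.85 and 2.26 RPKM in mms21RINGD and 0.437, 0.305 and 0.496 RPKM in WT, with no overlap. It passed the filter of 1 RPKM only through the mutant libraries, so it had to differ, and its values are a description without a test. Even in the mutant it stayed far below MCD1. Of 9 meiotic genes 7 were called higher, where 42.7% of all features were higher. After median-of-ratios scaling 5 were, against 25.4% of all features, and after quantile normalization 0, against 20.3%. The 7 include REC8, whose call is not a test. The list had a median of 0.63, and summed to 45.4 to 48.9 RPKM in mms21RINGD and 29.7 to 31.1 RPKM in WT. Whether the same cells held these RNAs was not tested. PDS5, which guards bound cohesin, and CTF4, a replication fork protein needed for cohesion, did not pass at 0.34 ± 0.13 and 0.26 ± 0.16. Both were called without WT replicate 1, at 0.49 and 0.45. Without that library 11 of the 15 cohesin regulators, REC8 included, were called higher, where 57.3% of all features were higher. The genes of separase, ESP1, and its inhibitor securin, PDS1, gave 0.05 ± 0.07 and 0.03 ± 0.11 (limma adjusted p = 0.506 and 0.823). ESP1 was called lower after median-of-ratios scaling, at -0.18 (limma adjusted p = 0.0246). After quantile normalization ESP1 at -0.35 and PDS1 at -0.47 were both called lower (limma adjusted p = 0.00314 and 0.00400). The calls of ECO1 and RAD61 were lost without any library other than WT replicate 1, and that of SCC4 without mms21RINGD replicate 1 or 2 or WT replicate 2 or 3.

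Of 9 genes that act with condensin on the ribosomal DNA and in mitosis 4 were higher and none lower. That share is close to the 42.7% of all features, and the median log2 fold change was 0.29. After median-of-ratios scaling 4 were lower and after quantile normalization 5, where 27.1% and 34.6% of all features were lower. TOP2, topoisomerase II, was at 33.4, 36.03 and 35.8 RPKM in mms21RINGD and 28.9, 24.7 and 23.6 RPKM in WT (0.44 ± 0.09, limma adjusted p = 0.00779). CSM1, of the monopolin complex that recruits condensin to the ribosomal DNA, was at 21.6, 22.6 and 22.6 RPKM in mms21RINGD and 15.1, 15.04 and 15.1 RPKM in WT (0.53 ± 0.06, limma adjusted p = 0.000641), and its partner LRS4 rose by 0.31 ± 0.08 (limma adjusted p = 0.0215). NET1, a nucleolar anchor of the phosphatase Cdc14, rose by 0.29 ± 0.06 (limma adjusted p = 0.00842). FOB1, the fork barrier protein of the ribosomal DNA, CDC14 itself and CDC5, the polo kinase that phosphorylates condensin, did not pass, with log2 fold changes of -0.05 ± 0.06, -0.12 ± 0.07 and -0.04 ± 0.06. With either scaling these 3 were called lower and NET1 and LRS4 were no longer called higher, and after quantile normalization CSM1 was not called either, at 0.18 (limma adjusted p = 0.0605). The call of LRS4 was also lost without mms21RINGD replicate 1 or 2 or WT replicate 2 or 3.

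Of the 8 genes of the Smc5/6 list, which includes MMS21 itself, 5 were higher and none lower, against 42.7% and 10.9% of all features, with a median log2 fold change of 0.29. Median-of-ratios scaling left 2 higher and 2 lower of the 8, and quantile normalization 2 higher and 4 lower. Of all features 25.4% were higher and 27.1% lower with the first, and 20.3% and 34.6% with the second. The SMC genes of that complex gave 0.62 ± 0.11 for SMC6 (limma adjusted p = 0.00534) and 0.24 ± 0.08 for SMC5 (limma adjusted p = 0.0453). The call of SMC5 was lost without any library other than WT replicate 1 and after median-of-ratios scaling, and quantile normalization called it lower. The difference between the complexes was not tested.

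Among 4432 named features that averaged 10 RPKM or more, those whose centred profile over the 6 libraries lay nearest to the mean cohesin profile were PDI1, EUG1, RNQ1, STE24 and ARH1, at Euclidean distances of 0.0504 to 0.0723 on the log2 scale. Like cohesin they were high in WT replicate 1, and PDI1 measured 635, 665 and 661 RPKM in mms21RINGD and 633, 486 and 441 RPKM in WT. With RPKM as deposited and all 6 libraries limma called none of the 5, at adjusted p of 0.0567 to 0.0884 (unadjusted p of 0.0316 to 0.0545, under 0.05 in 4 of the 5), and all 5 were called without WT replicate 1. Totals without structural and mitochondrial RNAs gave calls for all but EUG1, at limma adjusted p of 0.0302 to 0.0423, and PDI1 was also called after quantile normalization and by voom. Nearest to the condensin profile were HRT3, IDP1, BUD7, HAA1 and DCW1, at distances of 0.0256 to 0.0488, all 5 of which were called higher with RPKM as deposited. None of these 5 was called after median-of-ratios scaling, at 0.038 to 0.086 (limma adjusted p of 0.152 to 0.540), and IDP1 alone after quantile normalization. DCW1 lost its call without any library other than WT replicate 1, and BUD7 without mms21RINGD replicate 2. These genes were picked by their likeness to the complexes in the same 6 libraries. Their calls and p-values follow from that choice and are no separate test, and the likeness is a description.

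No annotated neighbour overlapped a member, the smallest gap being 110 bases between YCS4 and CMG1. Of 18 neighbours 5 were higher, 3 lower and 9 not called, and 1 had no value here. Of all features tested 42.7% were higher and 10.9% lower. RPL2A, a ribosomal protein gene upstream of SMC2, was at 825 ± 5.73 RPKM in mms21RINGD and 1244 ± 17.4 RPKM in WT (SD, n = 3 each; limma adjusted p = 6.91e-05). ATG45, upstream of IRR1 on the same strand, was 2.89-fold higher and CMG1, downstream of YCS4 on the opposite strand, 1.79-fold higher, though after quantile normalization CMG1 was not called, at 0.22 (limma adjusted p = 0.108). YCG1 lay between a pair of genes that were lower, UTP4 (-0.32 ± 0.11) and YSP2 (-0.17 ± 0.06), whose calls were lost without any library other than WT replicate 1 and with totals without structural and mitochondrial RNAs. Whether the authors counted by strand is not known here, and reads of genes on opposite strands could then not be told apart.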

How the data were processed

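The authors deposited RPKM values in 1 table with a column for each of 6 libraries, assigned here by sample title. Per the submitters' processing notes, sacCer3 was the build, and CASAVA 1.8.2, TopHat2 2.0.8 and edgeR 3.8.6 are named without roles. How reads were counted, and on which annotation and strand, is not given in the sources used here. Gene names, positions, lengths and upstream sequences came from RefSeq R64, the assembly of sacCer3: 6048 features matched by systematic name, 114 by symbol and 964 not at all. Gene models there hold no UTRs, so positions refer to the coding start. Library totals were inferred by taking the smallest products of RPKM and gene length as a single read. Whole reads were recovered with these totals, within 0.02 of a read, for 99.8% of values above 0.

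The main test was limma 3.58.1 (R 4.3.3) with a variance trend, a pseudocount of 1 RPKM, a filter at a mean of 1 RPKM and no covariate. It was also run on simulated counts. Those held no shift shared by all features and no outlying library, so they do not test it under the conditions seen here. Other pseudocounts and filters, 3 scalings, no trend, robust estimates, voom on the recovered reads, the replicate number as a block and each library left out were tried. The members and gene lists were chosen with earlier results of these data known. Named genes were all members, genes of the cohesin regulator, condensin partner and Smc5/6 lists, up to 4 genes of smallest p in each other list, the 5 nearest profiles per complex, and genomic neighbours.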

Additional observations from a re-analysis of the deposited data

How the results depend on the processing

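With all 6 libraries, 6 members were called higher under both other pseudocounts, no filter, no trend and robust estimates. Totals without structural and mitochondrial RNAs and voom also gave 6. Of all features 2860 and 2901 of 6731 were higher with pseudocounts of 0.1 and 5 RPKM, and 2776 of 7126 with no filter. No trend gave 2819 and robust estimates 2866 of 6731 features. Those totals gave 3389 of 6785 and voom 2745 of 5902. A filter at 10 RPKM left out BRN1, and 5 of 8 were called, where 2089 of 5295 features were higher. With median-of-ratios scaling 2 members were called, and the log2 fold changes were 0.21 for SMC1, 0.11 for SMC2, 0.044 for SMC4 and 0.075 for BRN1, all without a call, and -0.085 for SMC3, -0.10 for MCD1 and -0.13 for YCG1; SCC2 stood at -0.12, ESP1 at -0.18 and PDS1 at -0.20. With quantile normalization 1 member was called higher and 2 lower, with 0.084 for SMC1, 0.16 for IRR1, -0.19 for SMC3, -0.19 for MCD1, -0.057 for SMC2, -0.14 for SMC4, -0.24 for BRN1 and -0.25 for YCG1. Other genes that were positive as deposited stood at -0.32 for RAD61, -0.26 for SCC2, -0.072 for PDS5, -0.35 for ESP1, -0.47 for PDS1, -0.13 for CTF4, -0.26 for LRS4, -0.24 for SMC5, -0.051 for CDC45, -0.025 for ARH1, -0.029 for HRT3, -0.012 for BUD7 and -0.031 for HAA1. CDC5 moved to 0.0049 with totals without structural RNAs. The cause of these shifts was not tested.

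With each library left out, 1 to 9 members were called higher. The log2 fold change ranged from 0.36 to 0.58 for SMC1, 0.072 to 0.31 for SMC3, 0.0025 to 0.34 for MCD1, 0.42 to 0.69 for IRR1, 0.28 to 0.44 for SMC2, 0.25 to 0.33 for SMC4, 0.23 to 0.37 for BRN1 and 0.077 to 0.18 for YCG1, the highest always without WT replicate 1. PDS1 ranged from -0.048 to 0.14.

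Deviations of libraries with the same replicate number correlated at -0.14, 0.046 and -0.096, and those with different numbers at -0.087 to 0.21. With 3 libraries in each group these values cannot settle whether the numbers pair the samples. With the replicate block 3 members, SMC1, IRR1 and YCS4, were called, where 33.4% of all features were higher, and SMC2 at 0.34, SMC4 at 0.28 and BRN1 at 0.30 were not. The block also left 2 cohesin regulators and 3 late G1 genes called higher. A filter at 10 RPKM, which leaves out genes below it, left 1 regulator, 3 Smc5/6 genes and 0 meiotic genes called. With that filter 2089 of 5295 features were higher. With 3 libraries in each group the spread rests on few values, and depth gave each member at least 296 reads a library.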
